A study of Mus musculus with 14 samples.

Results

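Immediate early genes are transcribed within minutes of a growth factor, serum or stress signal, from factors already present in the cell and without new protein synthesis. The RAS, RAF, MEK and ERK kinases carry much of that signal to serum response factor (SRF), its ETS-family partners and the cyclic AMP response element binding protein (CREB), and mRNAs of this class are mostly short-lived. Many of the products are themselves transcription factors, among them the zinc finger proteins of the EGR family, the FOS and JUN proteins, which pair to form the AP-1 factor, ATF3 and MYC. The 10 genes described here are Egr1, Egr2, Fos, Fosl1, Jun, Junb, Atf3, Ier2, Ier3 and Myc, taken by name from a count table of 25131 rows, and all 10 have a row in it. Of these, 7 had enough counts to be tested, among 10241 tested genes in all.

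All libraries come from C57BL/6 mouse embryonic stem cells (ESCs). RNA was sequenced from 2 libraries of Rcor2 knockout (KO) cells and 2 libraries of wild-type (WT) cells, and RCOR2 binding came from a list of chromatin immunoprecipitation (ChIP) peaks in ESCs that express HA-tagged RCOR2, against controls of WT cells and of mCherry-expressing cells. RCOR2 is one of the CoREST corepressors, partners of the demethylase LSD1 and of histone deacetylases. Both genotypes were grown with fetal bovine serum, leukemia inhibitory factor, the MEK inhibitor PD0325901 and the GSK3 inhibitor CHIR99021, so that an inhibitor of the kinase above ERK was present in KO and WT cells alike. Neither the deleted part of Rcor2 is given in the labels nor whether the KO cells come from a single clone, and nothing in them says that libraries of a group came from separate cultures, so that p-values cover only library-to-library spread, possibly technical.

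Total counts were 2951498 and 1974865 in KO, against 2368804 and 1286393 in WT. Rcor2 itself was at 54.2 and 53.9 counts per 1000000 (CPM) in KO, against 81.4 and 81.5 CPM in WT, a difference of -0.59 on the log2 scale (SE 0.23) that was not called (edgeR, adjusted p = 0.0636). Tested genes of chromosomes 6, 8 and 3 had a median log2 fold change of 0.92, 0.52 and 0.48, and those of chromosome 11 one of -0.49, and of the tested members Ier2 and Junb lie on one of these, chromosome 8. Over all tested genes, 10.4% were called higher in KO and 9.3% lower. All 10 ESC markers on a fixed list were tested, among them Sox2, Nanog and Esrrb. Their summed level was 4535 and 4605 CPM in KO, against 4532 and 4325 CPM in WT. Of these markers 2 were called higher in KO and 1 lower, against 1 higher and 4 lower with each chromosome centred on its median, 1 higher and 0 lower without KO replicate 1 or KO replicate 2, and 2 higher and 0 lower without WT replicate 1. Of 10 fibroblast and feeder markers, Col1a1 alone had enough counts to be tested, and the list summed to 22.4 and 15.2 CPM in KO and 20.2 and 30.5 CPM in WT. The 8 primitive endoderm markers summed to 46.3 and 27.2 CPM in KO and 10.1 and 19.8 CPM in WT, mostly Dab2, with Foxa2 at 0 in every library. The 7 trophoblast markers summed to 70.8 and 65.9 CPM in KO and 97.0 and 147 CPM in WT, in WT mostly Tfap2c. The 5 mesoderm markers summed to 12.1 and 12.0 CPM in KO and 17.3 and 15.2 CPM in WT, mostly Gsc, with T and Mesp1 at 0. Not every gene followed the sum of its list. The trophoblast marker Cdx2 was counted 8 and 6 times in KO and 0 and 0 times in WT. For the mesoderm marker Kdr the counts were 11 and 8 in KO and 1 and 0 in WT. The 5 neural progenitor markers summed to 19.3 and 46.0 CPM in KO and 60.7 and 42.7 CPM in WT, with Neurog2 at 0. In KO Eomes was called higher and Tfap2c lower, and the trophoblast list had 1 call each way in all alternatives that use every library. Eomes was at 17.3 and 22.5 CPM in KO and 1.26 and 3.05 CPM in WT. It had enough counts through its KO libraries alone, so that it had to differ to be tested. Dab2 was called higher, but not without KO replicate 1 or WT replicate 1. Nes was called lower, but not without KO replicate 1 or WT replicate 1, nor in 3 other alternatives. The part of such cells in the results was not tested, and in bulk RNA more cells that express a gene cannot be told apart from more RNA per cell.

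Promoter windows of 300 bases, 250 before and 50 after the transcription start, were taken from a RefSeq table on GRCm38.p6 that is not complete, in which 6 of the 10 genes were matched: Egr2, Fos, Jun, Junb, Atf3 and Ier3. Those of Fos, Atf3 and Ier3 are printed because these genes were higher in KO, and that of Junb because an RCOR2 peak overlaps it. Capitals mark TGACG or its reverse complement CGTCA, the core of the cyclic AMP response element, and the TATA box letters TATAAA on the gene strand.
Fos, chr12:85473640-85473939, plus strand: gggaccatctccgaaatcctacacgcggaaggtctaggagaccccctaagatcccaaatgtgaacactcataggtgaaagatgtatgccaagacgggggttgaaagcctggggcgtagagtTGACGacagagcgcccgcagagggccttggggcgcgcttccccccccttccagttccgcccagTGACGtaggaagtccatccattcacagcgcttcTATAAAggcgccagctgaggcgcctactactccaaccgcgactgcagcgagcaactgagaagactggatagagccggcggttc
Atf3, chr1:191183284-191183583, minus strand: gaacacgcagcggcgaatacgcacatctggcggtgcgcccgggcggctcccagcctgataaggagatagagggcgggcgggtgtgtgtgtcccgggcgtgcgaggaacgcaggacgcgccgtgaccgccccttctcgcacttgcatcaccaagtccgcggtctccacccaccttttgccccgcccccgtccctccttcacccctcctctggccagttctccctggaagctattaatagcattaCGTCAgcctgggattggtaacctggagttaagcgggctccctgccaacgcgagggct
Ier3, chr17:35821463-35821762, plus strand: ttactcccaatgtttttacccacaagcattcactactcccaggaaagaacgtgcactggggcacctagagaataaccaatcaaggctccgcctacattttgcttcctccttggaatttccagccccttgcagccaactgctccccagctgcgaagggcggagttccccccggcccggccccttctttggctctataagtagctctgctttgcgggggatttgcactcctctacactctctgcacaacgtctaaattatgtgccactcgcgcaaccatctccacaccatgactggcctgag
Junb, chr8:84978699-84978998, minus strand: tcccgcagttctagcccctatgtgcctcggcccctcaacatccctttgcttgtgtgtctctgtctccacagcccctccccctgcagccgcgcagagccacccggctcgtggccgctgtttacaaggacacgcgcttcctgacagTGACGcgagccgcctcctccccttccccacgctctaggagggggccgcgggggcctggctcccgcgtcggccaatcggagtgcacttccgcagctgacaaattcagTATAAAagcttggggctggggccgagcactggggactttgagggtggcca
With the start site as base 1 and no base 0, Fos holds TGACG from -129 to -125 and from -66 to -62 and TATAAA from -33 to -28. Atf3 holds CGTCA from -7 to -3, and Junb holds TGACG from -106 to -102 and TATAAA from 1 to 6. The Ier3 window holds neither set of letters. Over all 32851 RefSeq windows of this length, 20.8% hold the TGACG core on either strand and 8.32% hold TATAAA on the gene strand. The CArG box, the SRF binding sequence of serum response elements, was searched on both strands and found in 1.63% of all windows. Among the printed windows none holds it, but bases more than 250 before the start were not searched. Egr2 has 5 annotated starts with 5 windows, and 3 of them, overlapping, hold the CArG box CCATATATGG, from -72 to -63 for the start at 67537869 on chromosome 10. The window of the start at 67537566 holds another, CCTTTTTTGG. Such matches are letters in a window and not measured sites.

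Egr1, Fos, Atf3, Ier2 and Ier3 rose in KO, Junb and Jun were not called, and Egr2, Fosl1 and Myc did not pass the filter on low counts. Calls were made with edgeR's quasi-likelihood test, two-sided, at an adjusted p under 0.05 over all tested genes. By that rule 5 of the 7 tested members were called higher, where 10.4% of all tested genes were, and 0 were called lower, where 9.3% of all tested genes were. Calls in either direction made up 19.7% of all tested genes. At an unadjusted p under 0.05, 1 member, Jun, was lower. It was also called lower by limma-voom, as were 10% of all tested genes. DESeq2 called 4 members higher, beside 6.35% of all tested genes, and 0 lower, beside 4.94%. The tested members had a median log2 fold change of 1.65, beside -0.02 for all tested genes. Because the members were chosen with earlier results of these data known, these shares and medians describe the list and test nothing. Atf3 passed the filter on low counts through its KO libraries alone, so that it had to differ to be tested.

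**Figure D1:**
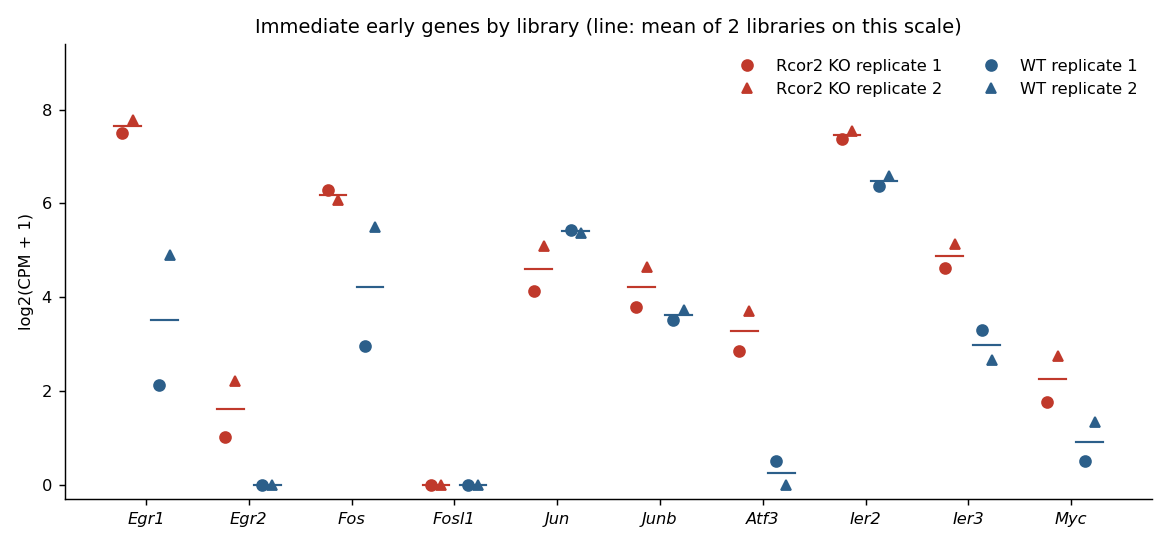
Level of each member in each library, as log2(CPM + 1), with Rcor2 KO (red) left of WT (blue), circles for replicate 1, triangles for replicate 2 and a line at the mean of both. Egr1 and Fos are high in both KO libraries and differ widely between the WT libraries, while Fosl1 is at 0 in all 4.

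Egr1 encodes the zinc finger transcription factor that is the standard readout of this response. It was counted 521 and 418 times in KO and 8 and 38 times in WT. Its level was 180 and 219 CPM in KO, against 3.37 and 29.0 CPM in WT. Both KO libraries lay above both WT libraries, as for 28.1% of all tested genes. The lower KO library was 6.21 times as high as the higher WT library. The mean was 199 ± 27.5 CPM in KO and 16.2 ± 18.1 CPM in WT (SD, n = 2 each). On the log2 scale the fitted rise was 3.87 (SE 0.32; edgeR, adjusted p = 9.19e-15), which ranked 29 among all tested genes. The SD in WT exceeded the mean, and per total count the WT libraries differed 8.75-fold (95% counting interval 4.02 to 21.7). The fold change followed the WT library used: it was 2.79 on the log2 scale without WT replicate 1 and 5.86 without WT replicate 2. With 1 WT library left, those fits hold no spread between WT libraries. Egr1 kept its call in all alternatives that use every library, most weakly with DESeq2 (log2 fold change 3.65, SE 1.26, adjusted p = 0.0378). Its relative Egr2, known for its role in hindbrain and Schwann cells, was counted 3 and 7 times in KO and 0 and 0 times in WT. Against a floor of 3 counts over both WT libraries, the observed level of Egr2 in KO was 2.47 times as high. This ratio leaves out counting error in KO and is no firm minimum. That floor corresponds to 0.821 CPM. With no filter on low counts Egr2 was tested and not called (edgeR, adjusted p = 0.257).

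Fos encodes the FOS partner of AP-1. It was counted 224 and 126 times in KO and 16 and 58 times in WT, which is 77.3 and 65.9 CPM in KO, against 6.74 and 44.2 CPM in WT. The groups did not overlap, which held for 28.1% of all tested genes in this direction, but the lower KO library was only 1.49 times as high as the higher WT library. Fos averaged 71.6 ± 8.06 CPM in KO and 25.5 ± 26.5 CPM in WT (SD, n = 2 each). On the log2 scale it rose by 1.65 (SE 0.35; edgeR, adjusted p = 0.000374), and the call depended on WT replicate 1. Without it the log2 fold change was 0.72, and without WT replicate 2 it was 3.40. With 1 WT library left, those fits hold no spread between WT libraries. DESeq2, with all libraries, did not call Fos (log2 fold change 1.51, SE 1.15, adjusted p = 0.486). Fosl1, the FRA1 member of the family, was counted 0 times in every library, which allows up to 0.609 CPM over both KO libraries and 0.821 CPM over both WT libraries.

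Jun encodes the main JUN partner of AP-1 and was the tested member with a negative fold change. It was at 16.6 and 33.0 CPM in KO, against 42.2 and 40.4 CPM in WT, from 48 and 63 counts in KO and 100 and 53 counts in WT. Both KO libraries were below both WT libraries, as for 28.8% of tested genes. The KO libraries, not the WT ones, were spread here. On the log2 scale the difference was -0.77 (SE 0.33), and it was not called (edgeR, adjusted p = 0.0951). It was -0.33 without KO replicate 1 (edgeR, adjusted p = 0.689). It passed without KO replicate 2, at -1.30 (edgeR, adjusted p = 0.0298), and with limma-voom, at -0.91 (adjusted p = 0.0284). Junb, a JUN protein that often acts as a weaker activator than JUN, was at 12.8 and 24.1 CPM in KO and 10.5 and 12.2 CPM in WT. The lower KO library was 1.05 times the higher WT library, and the log2 fold change of 0.68 (SE 0.48) was not called (edgeR, adjusted p = 0.353). It was 1.09 without KO replicate 1, 0.19 without KO replicate 2 and 0.17 centred on the median of chromosome 8, and was called in none of these fits.

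Atf3 encodes a stress-induced leucine zipper factor that pairs with JUN proteins. It was counted 18 and 23 times in KO, and 1 and 0 times in WT. In CPM this was 6.21 and 12.0 in KO, against 0.422 and 0 in WT. The ratio of summed counts per depth was 30.4, with a 95% counting interval from 5.16 to 1230, a wide range set by the single WT count. The fitted log2 fold change was 4.79 (SE 1.11; edgeR, adjusted p = 0.00098). The call was lost without KO replicate 2 (log2 fold change 4.29; edgeR, adjusted p = 0.0913), and without WT replicate 1, when all remaining WT counts were 0, the fitted value was 7.20 and is no measure of size.

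Ier2, a short gene for a nuclear protein, was at 165 and 186 CPM in KO, against 82.2 and 95.2 CPM in WT. The 4 libraries were tight within their groups, with means of 176 ± 14.4 CPM in KO and 88.7 ± 9.22 CPM in WT (SD, n = 2 each). Ier2 rose by 0.99 on the log2 scale (SE 0.19; edgeR, adjusted p = 7.07e-05). It was called with each library left out, and the value ran from 0.89 to 1.09 over those fits. Ier2 lies on chromosome 8, and after centring on the median of that chromosome it was at 0.48 and no longer called (edgeR, adjusted p = 0.0886). Ier3 encodes a regulator of cell survival known as IEX-1. It was at 23.8 and 34.0 CPM in KO and 8.85 and 5.33 CPM in WT, and rose by 1.95 on the log2 scale (SE 0.45; edgeR, adjusted p = 0.000959). The lower KO library was 2.69 times as high as the higher WT library, and Ier3 was called in each of the 11 alternative fits, at 1.69 to 2.43.

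Myc encodes the growth-promoting factor that is itself one of the reprogramming factors. It was counted 7 and 11 times in KO and 1 and 2 times in WT, or 2.42 and 5.76 CPM in KO and 0.422 and 1.52 CPM in WT. The ratio of summed counts per depth was 4.45 (95% counting interval 1.30 to 23.6). With no filter on low counts Myc was tested and not called (log2 fold change 2.15; edgeR, adjusted p = 0.406), and it was not called without WT replicate 1 or WT replicate 2 either (edgeR, adjusted p = 0.682 and 0.346).

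**Figure D2:**
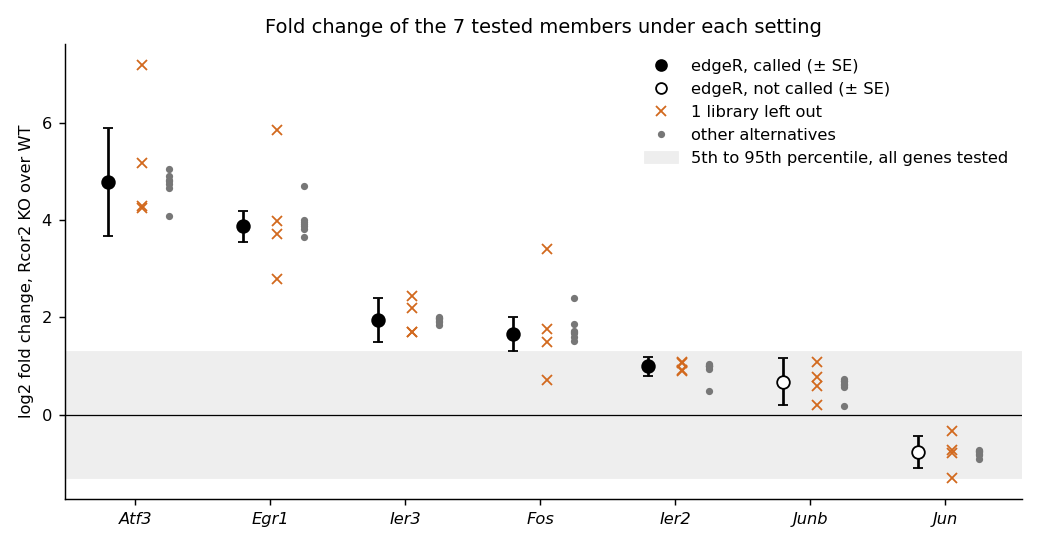
log2 fold change of the 7 tested members, KO over WT, from edgeR with its SE (filled where called), beside the fits that leave out 1 library (crosses) and the other alternatives (dots). The grey band runs from -1.31 to 1.29, the 5th to the 95th percentile of all tested genes. Egr1, Fos and Atf3 spread most when a WT library is left out, and Ier2 and Ier3 least among the called genes.

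The libraries of a group differed most for Egr1 and Fos, and they did so in WT. WT replicate 2 had 8.75 times the Egr1 and 6.68 times the Fos of WT replicate 1 (95% counting interval for Fos 3.79 to 12.4). In KO the same ratios were 1.20 (1.05 to 1.37) for Egr1 and 0.841 (0.670 to 1.05) for Fos. Between the WT libraries 99.6% of tested genes differed by less than Egr1 and 99.4% by less than Fos, as a log2 difference after adding 0.5 CPM. In all, 43 tested genes were at least 5 times as high in WT replicate 2 as in WT replicate 1, and by their level in WT replicate 2 Fos ranked 1 and Egr1 ranked 5 among them. For the other tested members the interval between the WT libraries included 1. The ratio was 0.976 (0.686 to 1.37) for Jun, 1.18 (0.588 to 2.3) for Junb, 1.18 (0.935 to 1.49) for Ier2 and 0.614 (0.220 to 1.5) for Ier3. In KO, replicate 2 had 1.96 times the Jun (1.33 to 2.92) and 1.86 times the Junb (1.18 to 2.95) of replicate 1. An interval that excludes 1 is common at this depth: it was found for 27.4% of tested genes between the KO libraries and 26.4% between the WT libraries. These intervals cover counting error only.

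**Figure D3:**
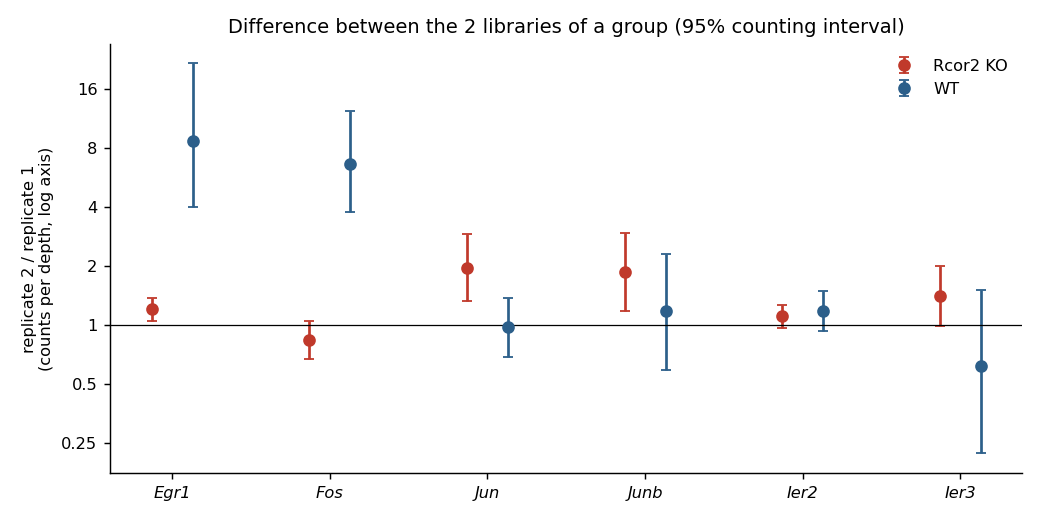
Ratio of replicate 2 to replicate 1 within Rcor2 KO (red) and WT (blue) for 6 members, as counts per depth on a log axis, with exact 95% counting intervals. Egr1 and Fos in WT stand at 8.75 and 6.68, and no other ratio shown exceeds 1.96.

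Of 39 other immediate early genes on a fixed list 31 were tested, of which 4 rose, 3 fell and 24 were not called, shares near the 10.4% and 9.3% of all tested genes called higher and lower, with a median log2 fold change of -0.07 beside -0.02 for all tested genes. Those that rose were the pluripotency factor Klf4, at 653 and 660 CPM in KO and 312 and 217 CPM in WT (log2 fold change 1.30, SE 0.16), Tiparp (1.39, SE 0.21), Klf6 (1.03, SE 0.23) and Ccn2, the connective tissue growth factor (2.37, SE 0.59). Ccn2 passed the low count filter through KO alone and lost its call without KO replicate 1 (2.29; edgeR, adjusted p = 0.0550). Gadd45b, a stress sensor, fell to 34.5 and 23.5 CPM in KO, against 94.0 and 64.0 CPM in WT, and Ier5l (-2.06, SE 0.62) and Klf10 (-0.61, SE 0.21) fell as well. The call of Klf10 was lost in 7 of 11 alternatives, among them those without KO replicate 1, KO replicate 2 or WT replicate 2 (-0.77 to -0.44 with a library left out). That of Ier5l was lost in 3, among them those without KO replicate 2 or WT replicate 1 (-2.83 to -1.64). The EGR family genes Egr3 and Egr4 were the 2 genes of the list counted 0 times in every library. No difference between the 10 members and this list was tested.

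Among the regulators, Elk1 was the one gene called around SRF. Of 10 tested genes for SRF, its ETS-family and myocardin-related partners, CREB and their relatives, 0 rose and 1 fell. The shares over all tested genes were 10.4% and 9.3%, and 10 genes are too few to tell 0 from them. DESeq2 and limma-voom also called 0 higher, as did edgeR at an unadjusted p under 0.05. Elk1, an ERK substrate that binds with SRF, fell by 1.01 on the log2 scale (SE 0.35), a call lost in 6 of 11 alternatives, including each of those that leave out a library (-1.18 to -0.83), and Srf was at 0.31 (SE 0.61), or -0.14 without KO replicate 1. Nab2, a corepressor of EGR proteins, was counted 11 and 9 times in KO and 1 and 0 times in WT, a ratio of 14.8 per depth (95% counting interval 2.37 to 615). Nab1 was counted 8 and 2 times in KO and 9 and 12 times in WT. Neither Nab gene had enough counts to be tested.

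Of 10 tested partners of AP-1 and ATF proteins, 1 rose and 2 fell, beside 10.4% and 9.3% of all tested genes. Atf4, the effector of the amino acid and unfolded protein responses, was at 194 and 228 CPM in KO and 99.1 and 102 CPM in WT, 1.07 higher on the log2 scale (SE 0.18; edgeR, adjusted p = 8.07e-06), and was called in all 11 alternatives. Mafg (-0.61, SE 0.22) and Cebpg (-1.20, SE 0.44) fell, with calls lost in 6 and 8 of 11 alternatives. Mafg was not called without KO replicate 2 or WT replicate 1 (-0.89 to -0.33 with a library left out), nor centred on chromosome 11 (-0.12), and Cebpg not without KO replicate 1, KO replicate 2 or WT replicate 2 (-1.65 to -0.65). Jund was at 0.18 (SE 0.27), at -0.02 without WT replicate 1 and at -0.33 centred on chromosome 8. In the MYC and MAX network 0 of 11 tested genes rose, also with DESeq2 and limma-voom and at an unadjusted p under 0.05. So short a list cannot tell 0 from the 10.4% of all tested genes called higher. In this network 1 gene fell, beside 9.3% of all tested genes. That gene was Mycn, at 67.3 and 62.3 CPM in KO and 94.4 and 110 CPM in WT (-0.65, SE 0.22; edgeR, adjusted p = 0.0259). Its call was lost in 6 of 11 alternatives, among them those without KO replicate 1, KO replicate 2 or WT replicate 2 (-0.75 to -0.54). Max was at -0.23 (SE 0.34), or 0.16 without WT replicate 2.

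In the kinase cascade itself 2 of 23 tested genes rose and 1 fell. For this list and those that follow, the shares over all tested genes were 10.4% called higher and 9.3% called lower. The GTPase gene Nras rose (0.55, SE 0.17) and the adaptor gene Grb2 fell (-0.60, SE 0.22), and they lie on chromosomes 3 and 11, whose medians were shifted. Centred on those medians, Nras was at 0.07 and Grb2 at -0.11, and neither was called. With a library left out, Nras lost its call without KO replicate 1, KO replicate 2 or WT replicate 1 (0.25 to 0.92) and Grb2 without each in turn (-0.63 to -0.56). Of 10 tested feedback and delayed ERK targets 2 rose and 1 fell. The ETS factor Etv4 was counted 24 and 26 times in KO and 4 and 0 times in WT (3.30, SE 0.86), with a call lost without KO replicate 2 (2.96; edgeR, adjusted p = 0.123). It passed the low count filter through KO alone, and without WT replicate 1, when the remaining WT count was 0, the fitted 7.47 is no measure of size. Spred1 rose (0.97, SE 0.35), a call lost in 5 of 11 alternatives, among them those without KO replicate 1, KO replicate 2 or WT replicate 2 (0.74 to 1.35), while Etv5 fell by 1.32 on the log2 scale (SE 0.22). Of 6 tested heat shock genes, which stress also induces, Dnajb1 rose (0.86, SE 0.24), Hsph1 fell (-0.86, SE 0.19) and 4 were not called. Dnajb1 lost its call in 4 of 11 alternatives, among them those without KO replicate 1 (0.47) or WT replicate 1 (0.64) and that centred on chromosome 8 (0.34), and Hsph1 without KO replicate 2 (-0.73).

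**Figure D4:**
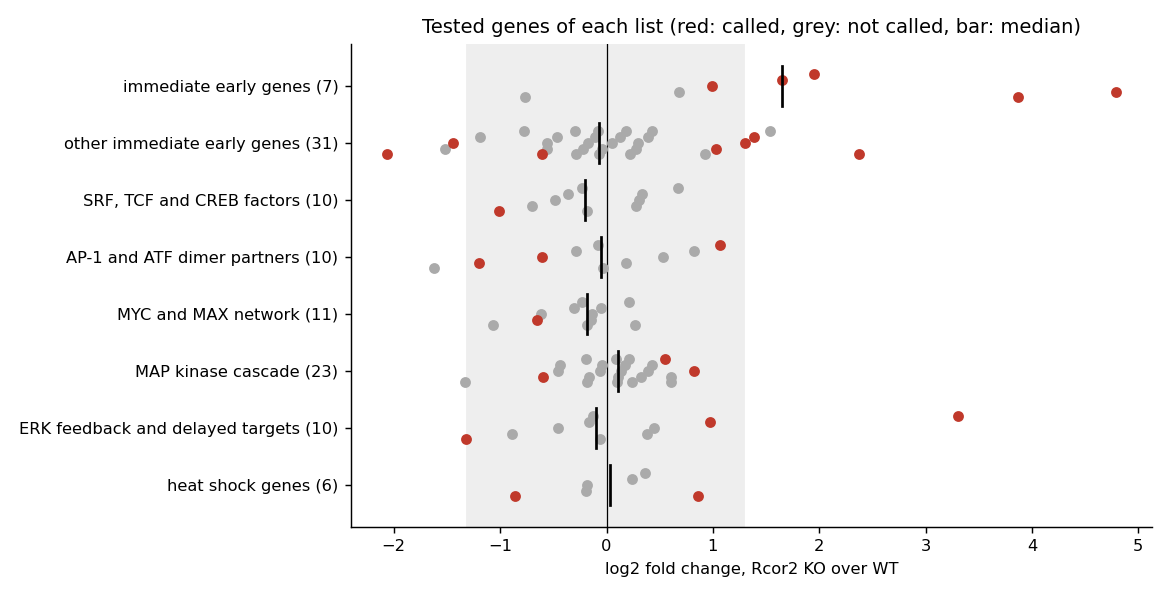
log2 fold change, KO over WT, of every tested gene of the 10 members and of 7 other fixed lists, with the number tested in brackets, called genes in red, a bar at each median and a grey band at the 5th to 95th percentile of all tested genes (-1.31 to 1.29). The median of the tested members is 1.65 and those of the other lists lie between -0.20 and 0.11. Members and lists were chosen with earlier results of these data known.

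None of the flanking genes was called, but 10 genes are too few to tell 0 from the share over all tested genes. The nearest tested gene on either side of each called member gave 10 genes, of which 0 were called by edgeR, DESeq2 or limma-voom, beside 19.7% of all tested genes with edgeR, and 1, Nsl1 below Atf3, had an unadjusted p under 0.05 (log2 fold change -1.0, SE 0.42; edgeR, adjusted p = 0.0881). Kdm3b and Etf1, 21837 and 37829 bp from Egr1, were at 0.10 (SE 0.25) and -0.01 (SE 0.15). Tmed10 and Jdp2, 99173 and 121382 bp from Fos, were at 0.12 (SE 0.17) and -0.03 (SE 0.69). Flot1, the closest at 409 bp from Ier3, was at -0.15 (SE 0.31), and the farthest was Nenf, 123454 bp from Atf3. Over the 4 libraries, the gene whose centred log2 CPM profile lay nearest to that of Egr1 was the growth factor gene Fgf10, at 26.2 and 23.5 CPM in KO and 0 and 2.29 CPM in WT (Euclidean distance 0.82), followed by Pon3 and Sgce. Cyp2s1, Eogt and Tmem45a were nearest to Fos (0.43 to 0.66), Ano6, Strap and Gpat4 to Ier2 (0.05 to 0.07), Abhd8, Lama1 and Accsl to Ier3 (0.12 to 0.22) and Zc2hc1c, Tspan8 and Hipk4 to Atf3 (0.37 to 0.41). With 4 libraries in 2 groups such distances describe these libraries only.

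Every one of the 10 genes had an RCOR2 peak within 10 kb of its interval, as did 88.7% of 10213 tested genes with a position and 85.3% of the 3667 of these whose interval was at most 15 kb long, a length that none of the members exceeds. The median number of peaks was 4.5 per member, against 2 per tested gene. These peaks numbered 43, with 19 summits inside a member. Their values were low within the list: the median −log10 q was 3.79 against 5.08 over all 53366 peaks on chromosomes, and 30.2% reached a −log10 q of 5, against 50.0% of all peaks. Fold and −log10 q are the authors' values for a list called on merged libraries, so no replicate error can be given. With peaks of a −log10 q of at least 5 only, 9 members and 70.2% of tested genes kept a peak, and with a fold of at least 5, 6 members and 57.3% did. No TALE 1 or TALE 2 peak of the same study, 13 and 4 in number, lay within 10 kb of a member. Peaks were about as common beside genes called higher in KO (89.7%), called lower (90.0%) and not called (88.5%).

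At Egr1 (chr18:34861207-34864956) there were 4 peaks, the strongest inside the gene at chr18:34861567-34861788, with a fold of 4.42 and a −log10 q of 4.87, near the middle of all peaks (48.8% have a lower value). At Fos (chr12:85473890-85477274) there were 2, one 1678 bp before the start (fold 4.61) and one 243 bp after it (fold 3.92). Egr2 (chr10:67534469-67542188) had 5 peaks, one of which overlaps the window of its start at 67535499, with its summit 68 bp after that start (fold 3.92). Another of the 5 had its summit inside the coding gene Ado. Ier3 (chr17:35821713-35822911) and Atf3 (chr1:191170296-191183333) had 1 peak each, with summits inside the gene, 157 bp and 888 bp after the start and with a fold of 4.84 and 5.07. Ier2 (chr8:84661331-84662852) had 2 weak peaks inside it (fold 4.15 and 3.32), and the strongest peak near any member, chr8:84651424-84653558, had its summit 8361 bp from it outside any protein-coding gene, with a fold of 10.1 and a −log10 q of 24.8, higher than 97.2% of all peaks.

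The members that were not called, or not tested, had peaks as well. Jun (chr4:95049036-95052222) held the strongest peak inside any member, chr4:95050342-95050709, with a fold of 6.90, a −log10 q of 12.5 and its summit 1698 bp after the start. Myc (chr15:61985341-61990361) had 6 peaks, the strongest of them, chr15:61984893-61985109, 345 bp outside the interval with a fold of 6.21. Junb (chr8:84976909-84978748) had 9, the largest number, one of which overlaps the printed promoter window with its summit 37 bp after the start (chr8:84978635-84978839, fold 4.38). Some of these 9 had summits inside the coding genes Rnaseh2a and Prdx2. Fosl1 (chr19:5447698-5455938), with 0 counts in every library, had 6, of which 1 had its summit inside the gene. Other summits near Fosl1 lay inside the coding genes Ccdc85b and Fibp. The highest fold per member ran from 4.42 at Egr1 to 10.1 near Ier2, and no relation between peak fold and the change in RNA was tested.

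**Figure D5:**
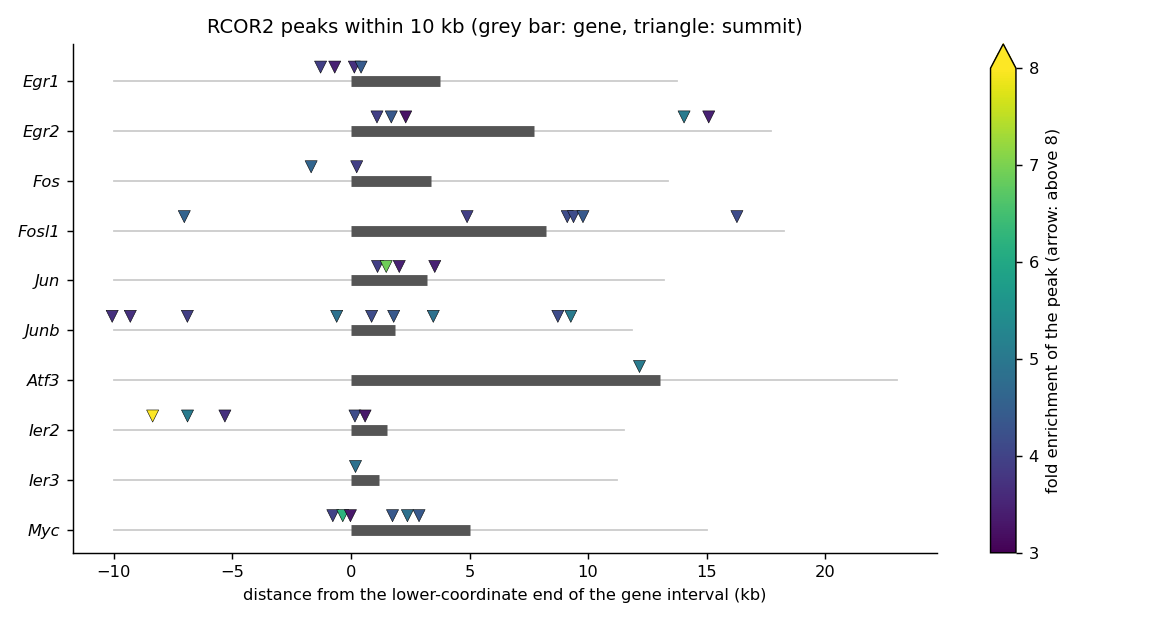
Summits of the RCOR2 peaks within 10 kb of each member (triangles, coloured by fold enrichment), by distance in kb from the lower-coordinate end of the gene interval, which is drawn as a grey bar. All 10 genes have at least 1 peak, the summits of 19 of 43 lie inside a gene, and the strongest, 10.1-fold, lies 8361 bp below Ier2.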

How the data were processed

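The authors deposited raw read counts per gene symbol (4 RNA-seq libraries) and lists of peaks, each with a fold ratio, a −log10 q and a score, per the file headers and layout. Per the submitters' processing notes, Trimmomatic 0.36, STAR 2.5.2b, SAMtools 1.8, Subread and featureCounts, Bowtie2 2.3.4.1, MACS2 2.1.1.20160309, bedtools 2.25.0 and HOMER were used, with GRCm38 and mm10. Nothing in the sources states how molecular identifiers, strand or shared reads were handled, and overlapping genes cannot be told apart. Peak names show merged RCOR2 libraries.

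KO was tested against WT on the counts (R 4.3.3, edgeR 4.0.16; filterByExpr with a minimum count of 10, about 4.6 CPM, TMM scaling, quasi-likelihood test, Benjamini-Hochberg adjustment over 10241 genes). CPM are per 1000000 counts after TMM scaling. Each SE is the log2 fold change over the root of F. The script was tested on simulated data. DESeq2 1.42.0 and limma 3.58.1 (voom), scaling, filter, chromosome centring, a replicate block and leaving out each library were alternatives. A fit with a library left out keeps 1 library in that group, so its spread comes from the other group alone. Replicates differed beyond sampling noise (chi-square over degrees of freedom 4.22 in KO and 4.78 in WT). Ratio intervals are exact binomial 95% intervals, and a floor is 3 counts.

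Positions are 1-based on GRCm38. RefSeq (GRCm38.p6) placed 25011 of 25131 rows, without strand or exons, so peak distances are to the gene interval unless a RefSeq promoter window gave the start. Members and lists were chosen with earlier results of these data known. Named genes are the members, the called genes of each list with 6 or fewer calls (otherwise the 3 of lowest adjusted p per direction), Srf, Nab1, Nab2, Mycn, Max and Jund, the flanking genes of called members and the 3 nearest profiles; 1 called list gene is not reported here. Markers and genes at 0 are named beside their lists.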

Additional observations from a re-analysis of the deposited data

How the results depend on the processing

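Of 77 values of the 7 tested members under alternatives, 71 kept their direction and their side of the threshold, 4 lost the call, 2 gained it and none changed sign; the 6 changes concern Fos, Ier2, Atf3 and Jun and are given above. Among 242 values of the 22 named genes of the pathway lists, markers not counted, 62 lost the call and 4 changed sign: Jund at -0.33 centred on chromosomes, and, with a library left out, Jund (-0.02 to 0.39), Max (-0.57 to 0.16) and Srf (-0.14 to 0.62). Members called higher numbered 4 to 5 and members called lower 0 to 1 with a library left out; limma-voom called 1 lower. Over all genes, DESeq2 called 650 higher and 506 lower, centring 643 higher, and leaving out a library gave 569 to 920 higher and 440 to 779 lower, over 10662 to 11076 genes tested. Genes of the fixed lists called lower numbered 10, against 3 with DESeq2 and 6 each with no low count filter, with centring and with scaling outside chromosomes 3, 6, 8 and 11. With a library left out, 6 to 11 list genes were called higher and 2 to 8 lower, and 1 to 3 other immediate early genes lower. DESeq2 called 1 of these lower. Members with an RCOR2 peak of a fold of at least 5 numbered 6. Replicate numbers are shared by KO and WT, but the labels do not say that they pair libraries, and same-numbered deviations correlated at -0.0532. With the number as a replicate block, 969 genes were called higher, 853 lower and 5 members higher. At this depth Egr2, Fosl1 and Myc did not pass the filter on low counts, and genes under about 4.6 CPM in most libraries were not tested. The causes of these changes were not tested.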
